A study of Mus musculus with 8 samples.

Results

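The genes described here are 10 skeletal muscle genes of the mouse: the 4 myogenic factors Myod1, Myog, Myf5 and Myf6, and the genes of 6 muscle proteins, Acta1, Myh3, Actn3, Casq1, Myoz1 and Itgb1bp2. They were chosen by symbol, and all 10 were found among the 20215 genes of the expression table. RNA was sequenced from Uhrf1 KO and WT cells of the E14 mouse embryonic stem cell (ESC) line, undifferentiated or after 1, 2 or 3 weeks of differentiation as embryoid bodies (EBs). EBs are cell aggregates, here started in hanging drops, in which derivatives of all germ layers form side by side. The 8 groups were thus KO and WT ESCs, KO and WT EBs at week 1, KO and WT EBs at week 2, and KO and WT EBs at week 3, with 1 library each. Uhrf1 is a chromatin protein that recruits the DNA methyltransferase Dnmt1 to newly replicated DNA. The labels of these libraries name 1 KO line, and its ESCs, like WT ESCs, were kept in serum medium with leukemia inhibitory factor on gelatin or on feeder fibroblasts before EBs were made. Levels are reads per kilobase of transcript and of sequencing depth (RPKM), a unit that allows for transcript length, so that levels of different genes can be set side by side. With 1 library per group the spread between cultures is unknown, no p-value was computed at a single stage, and the 95% intervals given with ratios cover counting error only. In a mixed culture, fewer muscle cells and less RNA per muscle cell cannot be told apart.

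Skeletal muscle forms when progenitors that carry Pax3 or Pax7 switch on the myogenic factors, a small family of basic helix-loop-helix proteins. Myf5, Myod1 and Myf6 commit cells to the lineage, and Myog drives their differentiation. All of them bind E-boxes, short DNA motifs found near many muscle genes, as dimers with E proteins, and they act there together with MEF2 factors. Their targets include the genes of the contractile apparatus, such as Acta1, Myh3 and Actn3, and of its membrane and anchoring systems, such as Casq1 and Myoz1. Several of these structural genes are also used in the embryonic heart, where the myogenic factors are absent and other regulators, such as Gata4, Nkx2-5 and serum response factor, drive the contractile genes.

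Promoters from RefSeq (GRCm38.p6) were matched for 5 of the 10 genes, Myog, Myf5, Acta1, Myh3 and Casq1. The 250 bases before the start site are printed for Casq1 and Acta1, the structural genes whose levels differed most often between the genotypes, and for Myog, the only myogenic factor that reached an RPKM of 1 in any library. E-boxes (CANNTG, which reads as the same pattern on both strands) and the CArG box, the motif bound by serum response factor, are in capitals, and the lines run 5′ to 3′ on the strand of the gene.
Casq1 (chr1:172219896-172220145, minus strand): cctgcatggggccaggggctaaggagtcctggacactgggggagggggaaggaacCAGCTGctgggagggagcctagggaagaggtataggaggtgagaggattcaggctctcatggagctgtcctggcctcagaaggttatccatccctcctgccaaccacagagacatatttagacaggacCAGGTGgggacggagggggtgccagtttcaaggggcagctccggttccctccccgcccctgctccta
Acta1 (chr8:123894776-123895025, minus strand): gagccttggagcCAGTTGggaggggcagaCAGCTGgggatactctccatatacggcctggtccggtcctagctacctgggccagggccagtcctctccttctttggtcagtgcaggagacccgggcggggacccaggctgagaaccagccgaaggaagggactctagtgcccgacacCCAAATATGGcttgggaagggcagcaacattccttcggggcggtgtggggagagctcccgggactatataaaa
Myog (chr1:134289754-134290003, plus strand): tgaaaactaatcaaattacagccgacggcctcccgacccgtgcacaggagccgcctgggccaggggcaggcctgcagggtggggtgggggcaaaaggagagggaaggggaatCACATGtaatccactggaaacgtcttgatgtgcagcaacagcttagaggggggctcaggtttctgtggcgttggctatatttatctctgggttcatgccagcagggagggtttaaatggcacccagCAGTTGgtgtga

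The Casq1 window held the E-boxes CAGCTG, 195 to 190 bases before the start, and CAGGTG, 67 to 62 bases before it. The Acta1 window held the E-boxes CAGTTG and CAGCTG, at 238 to 233 and 221 to 216 bases, and the CArG box CCAAATATGG at 73 to 64 bases before the start. In the Myog window E-boxes lay at 138 to 133 bases (CACATG) and at 12 to 7 bases (CAGTTG). Of the remaining windows, that of Myh3 held 1 E-box (CAGTTG, 191 to 186 bases before the start) and that of Myf5 held 0. E-boxes were present in 66.2% of all 32851 promoter windows of the same length, so that finding one says little of a gene. The CArG box was present in 1.47% of windows, and among the 5 genes only in that of Acta1. The MEF2 site was searched on both strands like the CArG box, as the strict pattern YTAWWWWTAR (Y is C or T, W is A or T, R is A or G). This pattern was present in 2.92% of all windows and was not matched in any of these 5 windows. Near matches were not counted, such as ctatatttat in the Myog window, which departs from the pattern at its last base only. The absence of a match therefore does not show that a window lacks a MEF2 site.

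Estimated depth ran from 12700000 reads in KO EBs at week 1 to 175000000 reads in KO ESCs, and in each EB stage the KO library was the shallower one. At these depths 1 read on a transcript of 1 kb was worth between 0.00572 and 0.0789 RPKM. The pluripotency marker Pou5f1 stood at 769 RPKM in KO ESCs and 705 RPKM in WT ESCs, and at 3.99 RPKM in KO EBs and 9.42 RPKM in WT EBs at week 1. It was higher again at week 3, with 104 RPKM in KO EBs and 111 RPKM in WT EBs. KO against WT, 0 of the 3 pluripotency markers passed 1.5-fold of RPKM + 1 in ESCs. Of these markers 2 were lower at week 1, 2 were higher at week 2 and 1 was lower at week 3. Over all genes compared, 3.84% were higher and 2.29% lower in ESCs, 8.37% and 6.22% at week 1, 10% and 6.42% at week 2, and 7.65% and 7.69% at week 3. Of 2 brown fat markers, Prdm16 reached an RPKM of 1 in either library except at week 1, and did not pass 1.5-fold. Ucp1 stayed below an RPKM of 1 in all libraries. Uhrf1 itself was at 45.2, 27.1, 34.6 and 31.0 RPKM in KO cells along the course, against 78.8, 43.8, 36.8 and 41.0 RPKM in WT cells, a sum over the whole gene that does not test the deleted part. Of 11 defining markers of skeletal muscle, between 1 and 5 per library reached an RPKM of 1. Their summed level lay between 17.0 and 56.0 RPKM in KO libraries and between 8.92 and 39.1 RPKM in WT libraries. The highest sums were those of KO ESCs and of WT EBs at week 3, where Mylpf alone stood at 45.8 and 29.4 RPKM. By contrast, 19 cardiac markers summed to 9670 RPKM in KO EBs and 3050 RPKM in WT EBs at week 1. The label "skeletal muscle" thus describes what the 10 genes are known for, and in each library at least 6 of the 11 defining markers of that tissue did not reach an RPKM of 1.

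The 4 myogenic factors were low in all libraries but that of WT EBs at week 3, where their summed level was highest. Their summed level was 0.183, 0.0374, 0.167 and 0.192 RPKM in KO cells in the order ESC, week 1, week 2 and week 3, which corresponded to 50, 1, 5 and 5 estimated reads. In WT cells it was 0.312, 0.0356, 0.318 and 1.60 RPKM, from 89, 3, 15 and 88 estimated reads.

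Myog (chr1:136186581-136189124 in mm9), the differentiation factor, was the only one of the 4 to reach an RPKM of 1, and it did so in 1 of 8 libraries. In KO cells it was at 0.140 RPKM in ESCs, listed at 0 at week 1, and at 0.0729 and 0.115 RPKM at weeks 2 and 3, the last from 3 reads. In WT cells it was at 0.144, 0.0151, 0.286 and 1.17 RPKM along the same course. At week 3 the KO level was 0.0987 of the WT level (95% interval 0.0195 to 0.299), that is 10.1-fold lower. The KO and WT levels in ESCs were close, with a ratio of 0.967 (0.588 to 1.57), and at week 2 the interval of the ratio, 0.0285 to 1.15, included 1. Within the WT course Myog at week 3 was 4.07-fold (2.27 to 8.31) above week 2. Even there its level exceeded only 39.1% of the genes in the table.

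Myod1 (chr7:53631844-53634462), a lineage factor that can convert fibroblasts to muscle cells, stayed below an RPKM of 1 in every library. It was at 0.0278 RPKM in KO ESCs, was listed at 0 in KO EBs at weeks 1 and 2, and stood at 0.0297 RPKM in KO EBs at week 3, from 1 read. WT ESCs had 0.140 RPKM, WT EBs at week 1 were listed at 0, and WT EBs at weeks 2 and 3 had 0.0170 and 0.251 RPKM. The KO to WT ratio was 0.198 (0.0843 to 0.408) in ESCs and 0.118 (0.00286 to 0.771) at week 3, so that at both stages the counting interval lay below 1. For a gene of this length, 3 reads would give 0.127 RPKM in the KO library of week 1, which is the level that a value of 0 there still allows.

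Myf5 and Myf6 are neighbours on chromosome 10 (106919964 to 106923190 and 106929916 to 106931785, both on the minus strand). Myf5, the earliest of the factors to appear in the embryo, was at 0.0108, 0.0374 and 0.0495 RPKM in KO cells in ESCs and at weeks 1 and 2, and was listed at 0 at week 3. In WT cells it was at 0.0224, 0.0205, 0.0149 and 0.182 RPKM, the last from 13 reads. Its level in WT EBs at week 3 was above all other libraries, while 3 reads in KO EBs at week 3 would have given 0.0805 RPKM. Myf6, which also works in mature fibres, had at most 1 read in any library and was listed at 0 in KO EBs at week 1 and in WT EBs at weeks 1, 2 and 3. No difference was detectable for Myf6 at this depth.

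**Figure D1:**
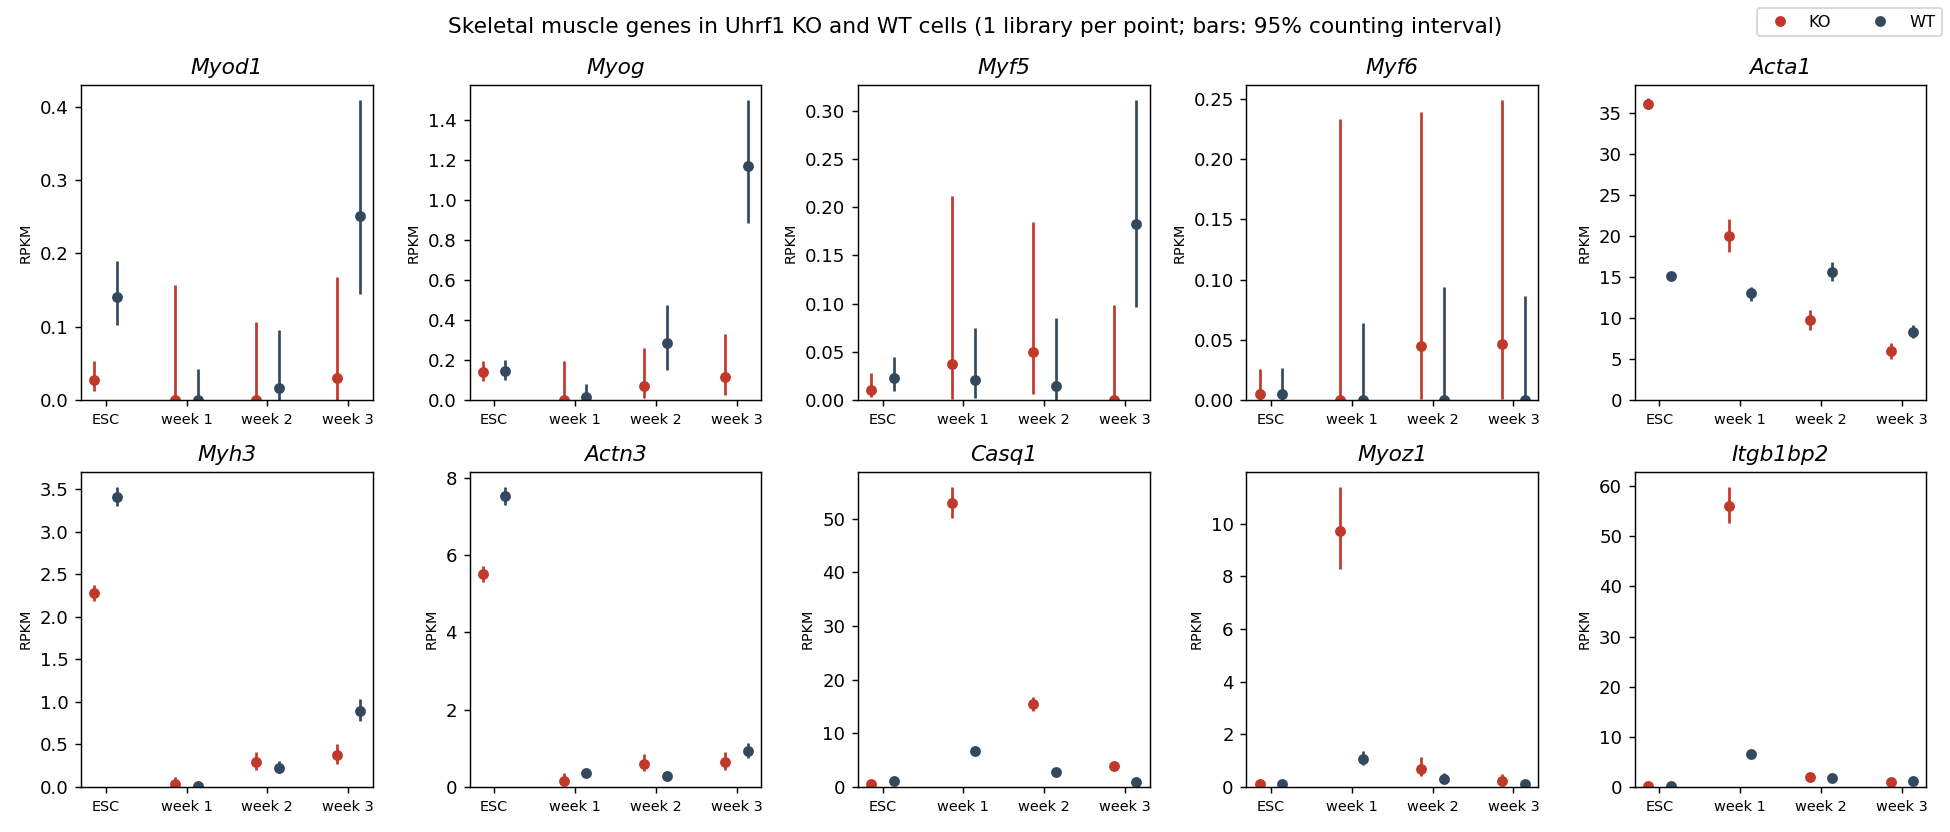
RPKM of the 10 skeletal muscle genes (vertical axes, each with its own scale) in KO and WT cells at 4 stages (horizontal axes). Each point is 1 library and bars are 95% Poisson intervals of the estimated reads. Myog reached 1.17 RPKM in WT EBs at week 3, Actn3 and Myh3 were highest in ESCs, and Casq1, Myoz1 and Itgb1bp2 were highest at week 1, with the KO points at 53.0, 9.73 and 56.1 RPKM.

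Upstream of the factors, the 26 progenitor genes and regulators in the table, among them Pax3 and Tbx6, were compared first. KO against WT, 0 of the 9 that reached an RPKM of 1 in either ESC library passed a 1.5-fold difference of RPKM + 1, and at week 1 there was 1 higher and 0 lower of 11. At week 2 there were 3 higher and 2 lower of 18, and at week 3 there were 7 higher and 2 lower of 20. Of the genes called, Tcf15 and Meox1 at week 2 and Tbx6, Msgn1 and Eya4 at week 3 entered through their KO level alone. Meox2 at week 3 entered through its WT level alone. Such a gene is more likely to be called. Of all genes compared, 3.84% were called higher and 2.29% lower in ESCs, 8.37% and 6.22% at week 1, 10% and 6.42% at week 2, and 7.65% and 7.69% at week 3. The median log2 difference of the listed genes compared was 0.12, 0.11, -0.24 and 0.11 in the order ESC to week 3, beside 0.04, 0.01, 0.05 and 0.02 over all genes compared. Over all 26 listed genes it was 0.02, 0.06, -0.05 and 0.05. Pax3, which lies upstream of Myf5 and Myod1 in the somite, was at 1.23 RPKM in KO EBs and 4.81 RPKM in WT EBs at week 3, or 3.91-fold lower (3.12 to 4.98). In the other direction, Tbx6, a factor of the presomitic mesoderm that comes before the somites, was at 1.49 RPKM in KO EBs and 0.194 RPKM in WT EBs at week 3, a ratio of 7.70 (4.09 to 17.2).

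Of 12 genes whose products restrain the factors or muscle growth, or oppose such a restraint, 0 of the 9 compared in ESCs were called. There were 2 higher and 0 lower of 11 at week 1, 1 higher and 1 lower of 12 at week 2, and 2 higher and 2 lower of 11 at week 3, beside the same shares of all genes. The median log2 difference of those compared was 0.06, -0.01, 0.11 and 0.23 in the order ESC to week 3. Mstn, the secreted inhibitor of muscle growth, was at 1.22 RPKM in KO EBs and 8.94 RPKM in WT EBs at week 2, or 7.33-fold lower. Fst, which binds and blocks myostatin and activins, was at 23.7 RPKM in KO EBs and 9.39 RPKM in WT EBs at week 3, a ratio of 2.52 (2.29 to 2.78).

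Of the contractile genes, Acta1, Myh3 and Actn3 were all present in undifferentiated ESCs, and their courses parted from there. Acta1 (chr8:126415669-126418651), the actin of skeletal muscle thin filaments, was above an RPKM of 5 in all 8 libraries. It was at 36.1, 20.0, 9.71 and 5.93 RPKM in KO cells in the order ESC, week 1, week 2 and week 3, a course that was lower at each step. In WT cells it was at 15.1, 13.0, 15.6 and 8.32 RPKM, a course that was nearly level up to week 2. The KO to WT ratio was 2.40 (2.30 to 2.49) in ESCs and 1.54 (1.36 to 1.75) at week 1. It was 0.622 (0.539 to 0.719) at week 2 and 0.712 (0.586 to 0.857) at week 3. The KO library was thus the higher one at the first pair of stages and the lower one at the second pair, with all 4 counting intervals away from 1. On the scale of RPKM + 1 the ESC and week 1 differences passed 1.5-fold as higher and the week 2 difference as lower, although week 1 (log2 difference 0.59) lay at the threshold and did not pass it when libraries were scaled by median ratios. In KO ESCs Acta1 was above 89.3% of all genes in the table and in KO EBs at week 3 above 59.2%, while in WT cells it was above 78.6% in ESCs and 65.4% at week 3.

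Myh3 (chr11:66891802-66915793), the embryonic myosin heavy chain, was at 2.28, 0.0330, 0.291 and 0.371 RPKM in KO cells and at 3.41, 0.0133, 0.225 and 0.896 RPKM in WT cells along the course. The ESC level was the highest in both genotypes, week 1 was the lowest, and part of the level came back by week 3. In ESCs the KO to WT ratio was 0.667 (0.633 to 0.703), and at week 3 it was 0.414 (0.287 to 0.586), while at weeks 1 and 2 the intervals (0.401 to 16.2 and 0.798 to 2.09) included 1. Myh3 shared 4.81% of its windows of 50 bases exactly with other genes, mostly with Myh13, so that a part of its level could belong to a related myosin.

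Actn3 (chr19:4861223-4877909), the alpha-actinin of fast fibre Z-discs, was also highest in ESCs. It was at 5.52, 0.158, 0.589 and 0.639 RPKM in KO cells and at 7.53, 0.353, 0.283 and 0.918 RPKM in WT cells. Both ESC libraries were far above all EB libraries, and in them Actn3 exceeded 63.9% (KO) and 68.6% (WT) of all genes. The KO to WT ratio was 0.733 (0.697 to 0.770) in ESCs and 2.08 (1.20 to 3.63) at week 2, and at weeks 1 and 3 its intervals included 1 (0.163 to 1.09 and 0.452 to 1.05).

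Casq1, Myoz1 and Itgb1bp2 formed another group, low in ESCs and highest at week 1 in both genotypes. Casq1 (chr1:174140025-174150026), the calcium buffer of the sarcoplasmic reticulum in skeletal fibres, was at 0.564, 53.0, 15.4 and 3.96 RPKM in KO cells in the order ESC, week 1, week 2 and week 3. In WT cells it was at 1.05, 6.75, 2.86 and 0.891 RPKM. The KO library was below the WT library in ESCs (ratio 0.539, 0.448 to 0.648) and above it at every EB stage, by 7.86-fold (7.12 to 8.68), 5.40-fold (4.54 to 6.47) and 4.44-fold (3.25 to 6.21). The first difference was the 21st largest among the 11569 genes compared at week 1, and the others ranked 135 of 12689 and 231 of 13050. By level, Casq1 exceeded 93.6% of all genes in KO EBs at week 1 and 64.0% in WT EBs.

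Myoz1 (chr14:21468324-21475762), a Z-disc protein of fast fibres that binds calcineurin, was at 0.0937, 9.73, 0.683 and 0.225 RPKM in KO cells and at 0.0968, 1.06, 0.309 and 0.112 RPKM in WT cells. Its ratio was 9.16 (6.79 to 12.4) at week 1. At week 2 it was 2.21 with an interval that only just excluded 1 (1.01 to 4.95), from 17 KO reads and 13 WT reads, and at week 3 the interval was 0.441 to 8.33. In ESCs the levels of the genotypes were alike by ratio (0.968), although the interval ran from 0.499 to 1.85.

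Itgb1bp2 (chrX:98644427-98648880), the gene of melusin, a muscle protein that binds the integrin beta1 tail, showed the sharpest peak. It was at 0.136, 56.1, 1.96 and 0.989 RPKM in KO cells and at 0.126, 6.54, 1.70 and 1.12 RPKM in WT cells. From ESCs to week 1 the level was 413-fold higher (291 to 617) in KO cells and 52.0-fold higher (35.2 to 78.6) in WT cells. Between the genotypes the ratio was 8.58 (7.62 to 9.67) at week 1. At weeks 2 and 3 it was 1.15 (0.775 to 1.67) and 0.884 (0.513 to 1.47), so that unlike Casq1 this gene had no KO excess past counting error after week 1. At its peak it exceeded 94.0% of all genes in KO EBs and 63.4% in WT EBs, places close to those of Casq1.

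Counted over the group, KO against WT on the scale of RPKM + 1, genes were compared where either library reached an RPKM of 1 and were called at 1.5-fold. In ESCs 4 of the 10 genes were compared, 1 was higher (Acta1) and 0 were lower, against 3.84% of all genes compared called higher and 2.29% lower. At week 1 the 4 genes compared (Acta1, Casq1, Myoz1 and Itgb1bp2) were all higher, against 8.37% higher and 6.22% lower over all genes. At week 2, of 3 compared, Casq1 was higher and Acta1 lower, against 10% and 6.42%. At week 3, of 4 compared, Casq1 was higher and Myog lower, against 7.65% and 7.69%. Myog and Itgb1bp2 entered the week 3 comparison through their WT level alone, Casq1 entered it through its KO level alone, and Casq1 entered the ESC comparison through its WT level alone, and such a gene is more likely to be called. Over those of the 10 genes that were compared, the median log2 difference was -0.39, 2.59, 0.13 and -0.26 in the order ESC to week 3. Over all genes compared it was 0.04, 0.01, 0.05 and 0.02. With the genes below an RPKM of 1 in both libraries included, the median of the 10 genes was -0.01, 0.03, 0.07 and -0.23. When libraries were scaled to equal RPKM totals the split over all genes shifted to 345 higher and 367 lower in ESCs, in place of 424 and 253, to 1083 and 589 at week 1, in place of 968 and 720, to 1009 and 1084 at week 2, in place of 1270 and 814, and to 786 and 1373 at week 3, in place of 998 and 1003. The calls among the 10 genes numbered the same under that scaling.

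**Figure D2:**
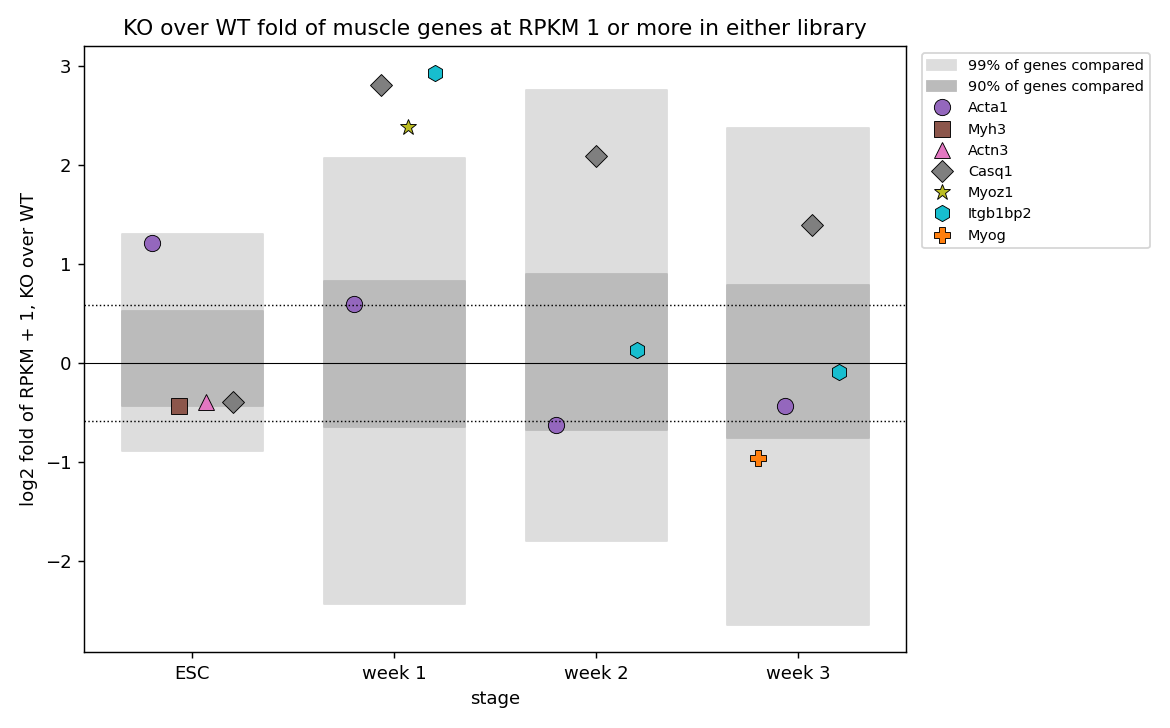
Log2 fold of RPKM + 1, KO over WT (vertical axis), at 4 stages (horizontal axis) for those of the 10 genes that reached an RPKM of 1 in either library. Grey boxes hold the central 90% and 99% of all genes compared, and dotted lines mark 1.5-fold. At week 1 Itgb1bp2 (2.92), Casq1 (2.80) and Myoz1 (2.38) lay above the 99% box, and at week 3 Casq1 (1.39) lay above and Myog (-0.96) below the 90% box.

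Each genotype was also followed along its own course. In KO cells Casq1, Myoz1 and Itgb1bp2 were higher and Acta1, Actn3 and Myh3 lower at week 1 than in ESCs, so that all 6 genes compared were called, against 34.0% of all genes called higher and 27.1% lower. In WT cells the same genes apart from Acta1 were called in the same directions, against 33.7% and 26.8%. Of the genes called, all but Acta1 in KO cells and all but Casq1 in WT cells reached an RPKM of 1 in only 1 of the 2 libraries compared. Such a gene is more likely to be called. Casq1 was 94.1-fold higher (80.5 to 110) at this step in KO cells and 6.46-fold higher (5.63 to 7.42) in WT cells.

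At week 2 against week 1 all 4 genes compared in KO cells were lower, Acta1, Casq1, Myoz1 and Itgb1bp2, against 7.31% of all genes called lower and 21.2% called higher. In WT cells 3 of 4 were lower, all but Acta1, against 10% lower and 21.3% higher. Myoz1 entered this step through its week 1 level alone in both genotypes. The share of Casq1 that was left at week 2 was 0.291 (0.263 to 0.322) in KO EBs and 0.423 (0.354 to 0.502) in WT EBs, whereas of Itgb1bp2 0.0350 (0.0255 to 0.0465) was left in KO EBs and 0.260 (0.200 to 0.337) in WT EBs. At week 3 against week 2, Acta1 and Casq1 were lower in both genotypes, of 3 genes compared in KO EBs (7.31% of all genes lower, 7.19% higher) and 4 in WT EBs (10.1% lower), and Myog was higher in WT EBs (13.2% higher). In WT EBs Casq1 entered this last step through its week 2 level alone and Myog through its week 3 level alone. Scaling moved the median log2 difference of all genes by more than 0.1 at some of these steps. Under median-ratio scaling it was -0.08 instead of 0.12 for KO EBs at week 1 against KO ESCs and -0.06 instead of 0.13 for the same step in WT. Under equal RPKM totals it was 0.23 instead of 0.02 for WT EBs at week 2 against week 1, with 3398 genes higher and 675 lower in place of 2615 and 1228, and 2 of the 4 genes compared there were then lower instead of 3.

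The group was also set beside the cardiac relatives of 4 of its genes, which were chosen after their values were seen. Actc1, the cardiac actin, was at 2110 RPKM in KO EBs and 506 RPKM in WT EBs at week 1, and at 223 RPKM in KO EBs and 486 RPKM in WT EBs at week 2. It thus had the same order of genotypes as Acta1 at both stages, at a far higher level (Acta1 20.0 and 13.0 RPKM, then 9.71 and 15.6 RPKM). Actn2, the cardiac and slow fibre alpha-actinin, was at 48.9 RPKM in KO EBs and 12.8 RPKM in WT EBs at week 1, where Actn3 had 0.158 and 0.353 RPKM. At week 2 Actn2 was 3.08-fold lower in KO EBs (2.79 to 3.40), while Actn3 stood at 2.08 times its WT level.

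Casq1 and its cardiac relative Casq2 went in opposite directions. Casq2, the calsequestrin of heart muscle, was at 0.182 RPKM in KO EBs and 0.184 RPKM in WT EBs at week 1, when Casq1 was at 53.0 and 6.75 RPKM. At week 2 Casq2 was at 2.82 RPKM in KO EBs and 8.38 RPKM in WT EBs, or 2.97-fold lower (2.47 to 3.61), and at week 3 it was 1.72-fold lower (1.42 to 2.11), at stages where Casq1 was 5.40-fold and 4.44-fold higher. In KO EBs Casq1 was thus the more abundant calsequestrin at all 3 weeks, and in WT EBs at week 1 only. Myoz2, the cardiac relative of Myoz1, was at 0.222 RPKM in KO EBs and listed at 0 in WT EBs at week 1, and at 3.43 RPKM and 4.88 RPKM at week 2, when Myoz1 had passed its peak in both.

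**Figure D3:**
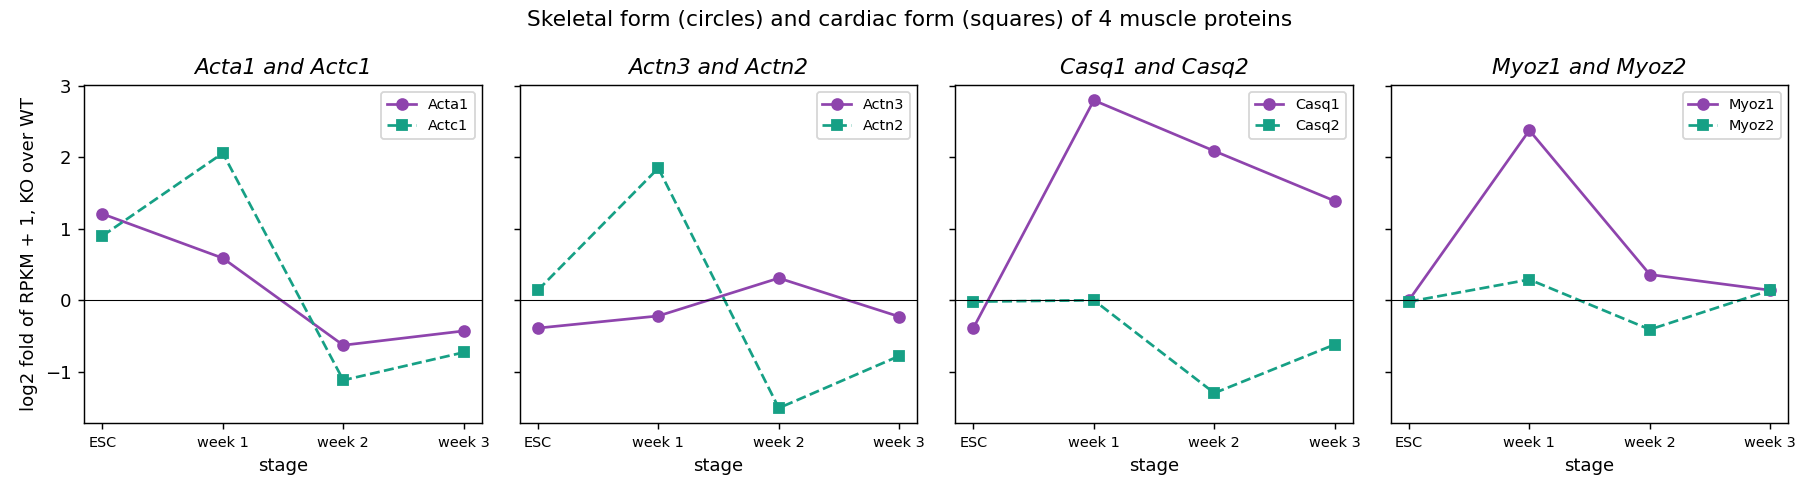
Log2 fold of RPKM + 1, KO over WT (vertical axes), along the 4 stages (horizontal axes) for the skeletal form (circles, solid line) and the cardiac form (squares, dashed line) of 4 muscle proteins, 1 library per group. The actins run together, with 0.59 for Acta1 and 2.06 for Actc1 at week 1 and -0.63 and -1.12 at week 2, whereas Casq1 stays above 1 at weeks 1 to 3 and Casq2 is at -1.30 at week 2.

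The wider muscle lists moved at the same stages. Of 39 differentiated skeletal muscle genes in the table, 15 were compared in ESCs, of which 5 were higher and 0 lower. At week 1 there were 19 higher and 0 lower of 22, with a median log2 difference of 1.06 over the genes compared and 0.61 over the whole list. Of the genes called higher there, Atp2a1, Cav3 and Myh1 entered through their KO level alone, and such a gene is more likely to be called. At week 2 there were 2 higher and 9 lower of 22 (median -0.51, over the whole list -0.08), and at week 3 there were 1 higher and 6 lower of 22 (median -0.50, over the whole list -0.22). Among the genes called, Tnnt3 and Mb in ESCs and Mustn1 at week 3 entered through their KO level alone. Tnni2 and Ckm at week 3 entered through their WT level alone. Over all genes compared, 3.84% were called higher and 2.29% lower in ESCs, 8.37% and 6.22% at week 1, 10% and 6.42% at week 2, and 7.65% and 7.69% at week 3. The largest differences of the list at week 1 were those of Actn2, Myh7 and Tnnt1. The list thus includes genes that are also used in the heart, such as Actn2, and the part of heart cells in its counts was not tested. Mylpf, the fast skeletal regulatory light chain, resembled Acta1 in ESCs, with 45.8 RPKM in KO ESCs and 18.4 RPKM in WT ESCs, a ratio of 2.49 (2.37 to 2.61). The list's largest differences at week 3 were those of Mb (6.37 RPKM in KO EBs and 24.9 RPKM in WT EBs), Myl1 and Tnni2. Tnni2, the fast troponin I, was at 0.212 RPKM in KO EBs and 2.79 RPKM in WT EBs, or 13.2-fold lower (4.95 to 74.1). Myl1, the fast essential light chain, was at 1.03 RPKM in KO EBs and 5.49 RPKM in WT EBs, or 5.32-fold lower (3.36 to 8.93). Mylpf did not pass 1.5-fold at week 3, with 26.2 RPKM in KO EBs and 29.4 RPKM in WT EBs, a ratio of 0.891 (0.785 to 1.01).

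The 12 genes of fusion and the neuromuscular junction gave few detected members, with 4, 2, 3 and 3 compared in the order ESC to week 3, of which 1 at week 2 was higher (Gm7325, the fusion micropeptide gene, with 2.87 RPKM in KO EBs and 1.09 RPKM in WT EBs) and 0 were lower. Of the 11 defining markers of skeletal muscle, 5, 3, 4 and 5 were compared. Of these 3, 2, 1 and 0 were higher and 0, 0, 0 and 3 lower in KO, the last being Tnni2, Myog and Ckm. Tnni2, Myog and Ckm entered the week 3 comparison through their WT level alone, and such a gene is more likely to be called lower. In ESCs Tnnt3, called higher, entered through its KO level alone. Over all genes compared, 3.84%, 8.37%, 10% and 7.65% were called higher from ESC to week 3. Lower calls made up 2.29%, 6.22%, 6.42% and 7.69%. Ckm, the muscle creatine kinase, was at 0.489 RPKM in KO EBs and 1.41 RPKM in WT EBs at week 3, or 2.88-fold lower (1.59 to 5.99).

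Cardiac and smooth muscle markers moved with the week 1 excess of Casq1, Myoz1 and Itgb1bp2. Of 19 cardiac markers 17 were compared at week 1 and 15 were higher and 0 lower in KO EBs, and their summed level was 9670 RPKM in KO EBs and 3050 RPKM in WT EBs, with 0 of 19 listed at 0 in KO EBs and 1 in WT EBs. Of 9 smooth muscle markers 8 were compared and 7 were higher and 0 lower, with sums of 805 RPKM in KO EBs and 362 RPKM in WT EBs and none listed at 0. Myod1 and Myog were both listed at 0 in the same KO library. At week 2 the cardiac sum was 1280 RPKM in KO EBs and 2030 RPKM in WT EBs, with 0 markers higher and 14 lower of 19, at week 3 it was 752 RPKM in KO EBs and 996 RPKM in WT EBs, with 1 higher and 7 lower of 17, and in ESCs it was 49.1 RPKM in KO and 45.1 RPKM in WT, with 3 higher and 0 lower of 8. Smooth muscle sums were 181 RPKM in KO EBs and 224 RPKM in WT EBs at week 2 (3 higher, 0 lower of 8), 93.2 RPKM and 121 RPKM at week 3 (0 higher, 3 lower of 8), and 113 RPKM in KO ESCs and 71.9 RPKM in WT ESCs (2 higher, 0 lower of 5). Casq1 was higher in KO EBs at weeks 2 and 3 while the cardiac sum was lower there. At week 1 the cardiac markers Nppa, Nppb and Pln and the smooth muscle markers Actg2 and Lmod1 entered through their KO level alone. At week 2 the cardiac markers Nppa and Nkx2-5 entered through their WT level alone. Such a gene is more likely to be called. The shares of all genes called at each stage were those given above for the progenitor genes. The part of these cell types in the levels of the 10 genes was not tested.

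**Figure D4:**
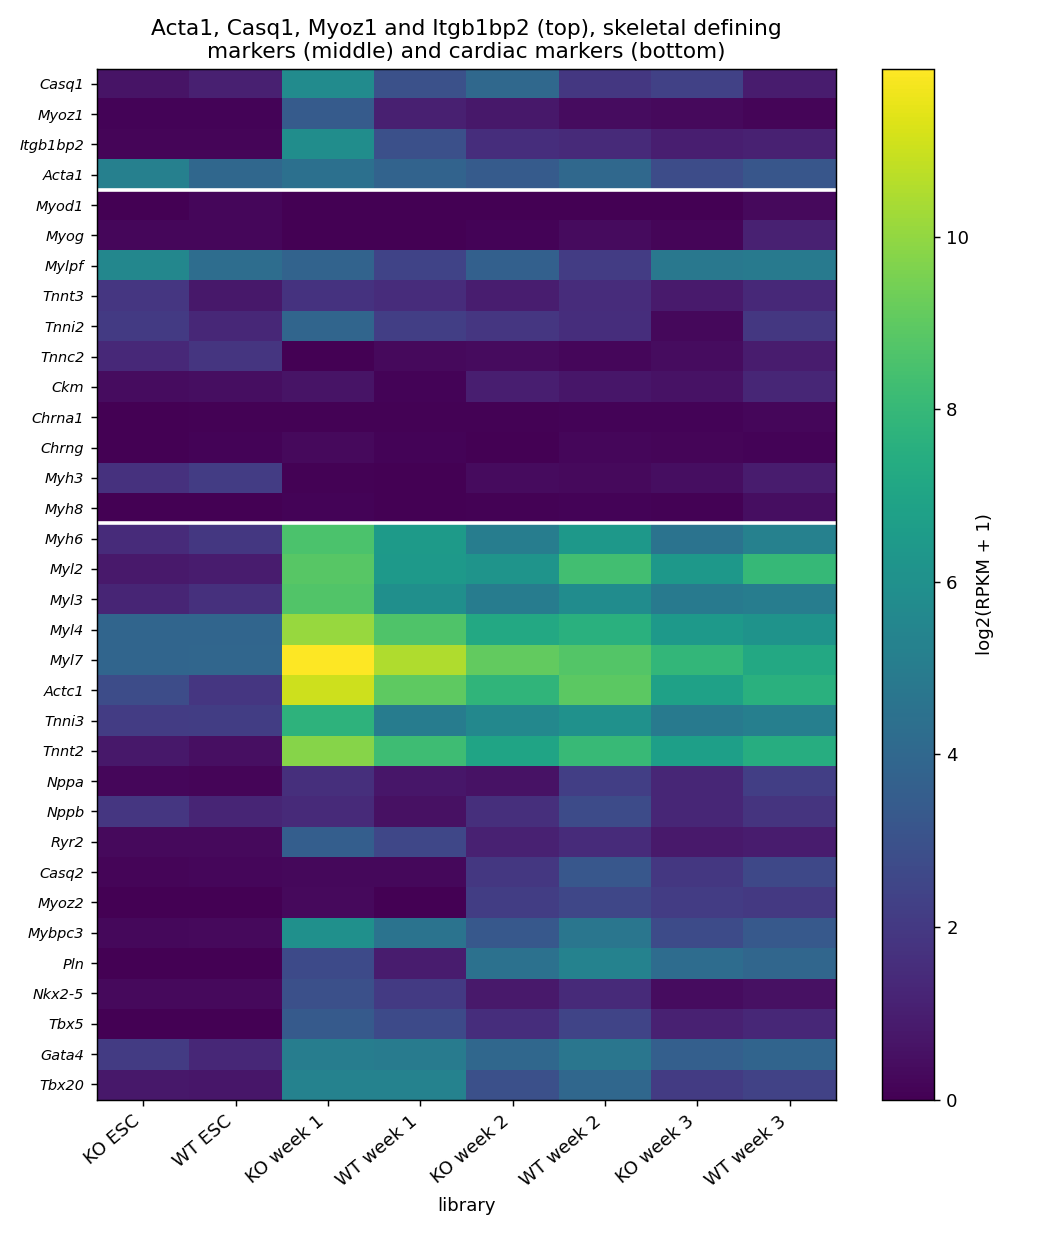
Levels as log2(RPKM + 1) (colour) of Acta1, Casq1, Myoz1 and Itgb1bp2 (top rows), of 11 defining markers of skeletal muscle, which include Myod1, Myog and Myh3 (middle rows), and of 19 cardiac markers (bottom rows) in the 8 libraries (columns). Casq1, Myoz1 and Itgb1bp2 are brightest at week 1, the column where the cardiac rows sum to 9670 RPKM in KO and 3050 RPKM in WT, while most skeletal rows stay dark.

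A limma model over all 8 libraries, with terms for stage and genotype, gave the tests that the design allows, for the 6 of the 10 genes that reached an RPKM of 1 in 2 or more libraries. EBs against ESCs, 4 of these 6 genes passed an adjusted p of 0.05, in a model in which 43.9% of all genes were called higher and 28.7% lower and the median difference was 0.25. Actn3 fell by 2.34 on the log2 scale (SE 0.18, limma, adjusted p = 0.000215) and Myh3 by 1.58 (SE 0.18, adjusted p = 0.000697). Actn3 and Myh3 reached an RPKM of 1 in the ESC libraries only. They thus entered the fit through the group where they were higher, and such a gene is more likely to be called lower in EBs. Casq1 rose by 2.15 (SE 0.59, limma, adjusted p = 0.0193) and Itgb1bp2 by 2.13 (SE 0.63, adjusted p = 0.0248). The difference of Casq1 was 0.91 without the KO ESC library (limma, adjusted p = 0.127) and 3.39 without the WT ESC library (adjusted p = 0.00532). That of Itgb1bp2 did not pass without the KO ESC library (1.64, limma, adjusted p = 0.200), without the WT ESC library (2.61, adjusted p = 0.0752) or without the WT library of week 2 (1.99, adjusted p = 0.0505). Acta1 had a difference of -1.0 (SE 0.37, limma, adjusted p = 0.0549) and Myoz1 one of 0.88 (SE 0.49, adjusted p = 0.154).

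For genotype over all stages, limma called none of the 6 genes, and 0 of the 13249 genes of the table were called higher (0%) or lower (0%), with 1984 at an unadjusted p under 0.05. Casq1 had the largest difference of the 6, 1.47 (SE 0.51, unadjusted p = 0.0299, limma, adjusted p = 0.291), and was higher in KO at 3 of 4 stages. The difference was 0.74 (SE 0.54, limma, adjusted p = 0.561) for Itgb1bp2, which became 0.02 without either week 1 library, 0.72 (adjusted p = 0.474) for Myoz1, 0.18 (adjusted p = 0.822) for Acta1, -0.13 (adjusted p = 0.723) for Actn3 and -0.20 (adjusted p = 0.582) for Myh3.

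Whether the genotype difference at week 1 was unlike that of the other stages was tested with its own term, which called 2 of 13249 genes, both lower (0.0151%; 0% higher), and 956 at an unadjusted p under 0.05. Itgb1bp2 had a week 1 term of 2.90 (SE 0.24, interval 2.25 to 3.55), which ranked 12th among all genes (unadjusted p = 0.000149, limma, adjusted p = 0.165). Myoz1 had a term of 2.21 (SE 0.31, interval 1.38 to 3.04) at rank 42 (unadjusted p = 0.00136, limma, adjusted p = 0.429). Neither passed after adjustment. The week 1 term was chosen with earlier results of these data known, so that its unadjusted p-values and ranks are descriptive only. The term was 1.77 for Casq1 (interval -0.91 to 4.45, limma, adjusted p = 0.772), and for Acta1, Myh3 and Actn3 it was 0.54, 0.30 and -0.12 with adjusted p of 0.898 or more.

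For the 5 genes that reached an RPKM of 5 in some library, the genes with the most similar course over the 8 libraries were searched among 10629 candidates by Pearson correlation of log2(RPKM + 1), as a description over libraries that share stage and depth. For Actn3 they were Acot10, Nol9 and Helb (0.999, 0.997 and 0.995). For Itgb1bp2 they were Kcnmb1, the beta subunit of a calcium-activated potassium channel, Rbm20, a splicing factor of heart muscle, and Cacna2d2, a calcium channel subunit (0.994, 0.983 and 0.983). Myoz1 shared the first of these, with Kcnmb1, Itgb1bp2 and Fitm1 at 0.984, 0.971 and 0.969. For Casq1 they were Ddc, C130080G10Rik and Coq2 (0.966, 0.949 and 0.942), of which C130080G10Rik lies 786 bases from Actc1 on the opposite strand of chromosome 2. For Acta1 they were Tbrg1, Cdkn2d and Dnm2 (0.959, 0.945 and 0.944). Within the group, Myoz1 and Itgb1bp2 were correlated at 0.97, Casq1 with either at 0.89 and 0.88, and Casq1 with Actn3 at -0.66.

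By gene span, Casq1 overlaps Gm17224, and Acta1 overlaps Gm20388, each on the opposite strand. Whether their exons overlap was not tested. Since the library protocol names no step that keeps the strand, reads from any exon stretch that a pair shares cannot be told apart. Exact shared windows of 50 bases were found for Acta1 (2.00%, with Actb), Myh3 (above) and Actn3 (0.0706%, with Actn2), and for 0 of the remaining 7 genes.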

How the data were processed

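Expression was measured by RNA sequencing in 8 libraries, 1 for each of Uhrf1 KO and WT cells at 4 stages. Mapping by the authors was to the mm9 genome with Bowtie 0.12.7, SAMtools 0.1.18 and TopHat 1.1.4. They quantified RefSeq genes as RPKM in Cufflinks 1.1.0 and deposited log2 values of RPKM + 1, which were turned back into RPKM (steps of 0.0001). That the log2 values hold RPKM + 1 was read from the deposited values. All columns were used, and groups came from the sample labels.

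Reads per gene and depth came from the spacing of low values once each RPKM was multiplied by its gene's length, in 5676 genes that have 1 GENCODE M1 transcript, 800 to 6000 nt long. Intervals are exact Poisson (levels) or exact binomial Clopper-Pearson (ratios) at 95% and cover counting error only. With 1 library per group, p-values of the stage and genotype terms treat stages as replicates of a genotype.

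Calls at a stage used 1.5-fold of RPKM + 1 where either library reached RPKM 1. Effects over libraries were modelled in R 4.3.3 by limma 3.58.1 (empirical Bayes with a mean trend, Benjamini-Hochberg adjustment) on 13249 genes, and these steps were tested on simulated data. Tables and figures were made in Python 3.11.15 (matplotlib 3.10.9, scipy 1.17.1, pandas 2.3.3 and numpy 2.4.6). Named genes were the 10 genes, up to 3 per list and stage with the largest log2 fold, and the 3 most similar courses per gene. The cardiac forms Actc1, Actn2, Casq2 and Myoz2 and the week 3 value of Mylpf were picked after their values were seen. Lists were progenitors and regulators, inhibitors, differentiated skeletal muscle, fusion and neuromuscular junction, and markers of cardiac, smooth and skeletal muscle, of pluripotent cells and of brown fat. The genes, the lists and the week 1 term were chosen with earlier results of these data known. Klhl41 and Nanog were not analysed here. As alternatives, each library was left out in turn, the threshold was set to 2-fold, the filter was removed or set to RPKM 5, the pseudocount was 0.1, libraries were scaled by median ratios or to equal RPKM totals, and limma was run without the trend.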

Additional observations from a re-analysis of the deposited data

Results flagged for a closer look

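The KO to WT difference of Acta1 changed sign along the course. Its log2 fold of RPKM + 1 was 1.21 in ESCs and 0.59 at week 1, where the KO library was higher, and -0.63 at week 2, where it was lower, so that the ESC fold exceeded that of week 2 by 1.84 and the week 1 fold exceeded it by 1.22. With 1 library per group these differences between stages were not tested pair by pair. The term for week 1 against the other stages was 0.54 for this gene (SE 0.79, limma, adjusted p = 0.913), and with 1 library left out it lay between 0.20 (without either week 2 library) and 1.12 (without either ESC library).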

How the results depend on the processing

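With 1 library per group, depth limits the myogenic factors most, since 3 reads on Myog are worth 0.160 RPKM in the KO library of week 1 and 0.113 RPKM in that of week 3. No replicate block could be fitted because each group holds 1 library and the labels give no replicate numbers, while the stage term of the limma model pairs KO with WT at each stage. For KO against WT, a pseudocount of 0.1 added 1 gene called lower in ESCs (0 before). A 2-fold threshold left 0 lower at week 2 and 0 lower at week 3 (1 each before), and a filter at RPKM 5 left 0 higher and 0 lower at week 3 (1 each before), because Casq1 and Myog do not reach RPKM 5 there. Between successive stages, a 2-fold threshold left 1 lower for KO EBs at week 3 against week 2 (2 before), and a filter at RPKM 5 left 1 lower for WT EBs at week 1 against ESCs (2 before). For WT EBs at week 3 against week 2, without a filter 2 genes were higher (1 before), and 0 were higher and 1 was lower both with a filter at RPKM 5 and at 2-fold (2 lower before). In the test of EBs against ESCs, leaving out 1 library at a time gave from 0 (without KO ESC) to 5 of the 6 genes called, and 2 without WT ESC, in place of 4. Without either ESC library, Myh3 and Actn3 no longer reached RPKM 1 in 2 libraries and left the fit. The difference of Acta1, -1.0, was -0.31 without KO ESC (limma, adjusted p = 0.511). It passed without WT ESC (-1.68, limma, adjusted p = 0.0229), without the WT library of week 2 or 3 (0.0294 and 0.0482) and under median-ratio scaling (0.0244), Myoz1 passed with a pseudocount of 0.1 (2.03, 0.0300), and Itgb1bp2 did not pass without a filter (0.0510). With 1 library left out, the genotype difference of Acta1 over all stages, 0.18, ranged from -0.16 (without either ESC library) to 0.46, and the week 1 term of Actn3, -0.12, from -0.18 to 0.08 (without either week 2 library). That term was -0.79 with a pseudocount of 0.1. The cause was not tested. The week 1 term of Itgb1bp2 ranged from 2.85 to 3.05 over its alternatives, with adjusted p from 0.143 to 0.562, and the genotype difference of Casq1 from 1.03 to 2.09, with adjusted p from 0.179 to 0.627. The week 1 term could not be fitted without either week 1 library. Of the values computed under an alternative for these counts, 146 kept to within 1.5 times and 14 did not.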
